A study of Mus musculus with 6 samples.

Results

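The MS4A family encodes small membrane proteins of leukocytes that cross the membrane several times. Its best known members are CD20, the product of Ms4a1 on B cells, and the beta chain of the high-affinity IgE receptor, the product of Ms4a2 on mast cells. Other members are known from myeloid cells and T cells, where they are thought to sit beside receptors and tune their signalling or trafficking. The genes lie side by side in one cluster and include sets of close copies that differ between mouse and human.

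Described here are 7 mouse members, Ms4a4b, Ms4a4c, Ms4a4d, Ms4a6b, Ms4a6c, Ms4a6d and Ms4a7, taken by symbol from a table of 23224 genes. The rule names symbols and uses no measured value, but the set was drawn up with earlier results of these data known. All 7 were in the table, and 6 passed the filter on low counts; Ms4a4d did not.

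The data were bulk RNA sequencing of dendritic cells (DC) sorted live from subcutaneous tumors of C57BL/6 mice 7 days after implantation of MC57-SIY cells. The MC57 line is a fibrosarcoma of the mouse, and the SIY tag is a peptide recognised by CD8+ T cells. The groups were ISG+ DC from Rag2-/- hosts (replicates 2 and 3), ISG+ DC from WT hosts (replicates 1 and 2) and CD103+ DC1 from Rag2-/- hosts (replicates 2 and 3), with 2 libraries each. CD103+ DC1 from WT hosts were not analysed here. All hosts carried the same tumor line, no agent was given per the labels, and the labels do not state the age or sex of the mice. Rag2 is required to assemble antigen receptor genes, and mice without it have no mature T or B cells but keep innate lymphocytes and myeloid cells. The labels say that tumors were pooled, without the number per pool, and that 2 independent experiments were done per group. The gate that defined ISG+ DC is not given in the labels; ISG usually stands for interferon-stimulated gene.

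The 7 genes stand near each other on mouse chromosome 19. Among 21 Ms4a genes there in the reference annotation (build GRCm38), Ms4a7 was number 12 in order along the chromosome. Ms4a4c, Ms4a4b, Ms4a6c, Ms4a6b, Ms4a4d and Ms4a6d were numbers 14 to 19. The Ms4a4 and Ms4a6 genes are thus interleaved rather than in separate blocks. The coding sequences, 651 to 741 bases long without the stop codon, showed which members are close copies. Ms4a4b and Ms4a4c were identical at 91.7% of aligned coding bases, and Ms4a4d was 85.6% identical to Ms4a4b and 87.9% to Ms4a4c. Within the Ms4a6 set, identity was 86.4% for Ms4a6b and Ms4a6c, 81.8% for Ms4a6b and Ms4a6d, and 79.6% for Ms4a6c and Ms4a6d. Between sets, and against Ms4a7, it was only 59.8% to 65.3%.

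**Figure D1:**
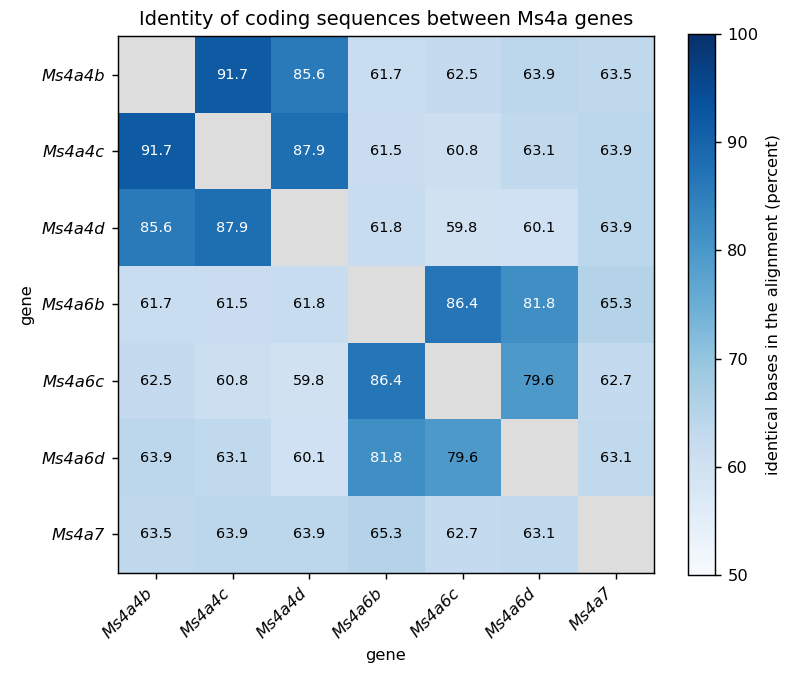
Identity of the coding sequences for every pair of the 7 Ms4a genes. Each square gives identical bases as a percent of the aligned coding bases. The Ms4a4 and Ms4a6 sets form blocks of 79.6% or more, while Ms4a7 stays at 65.3% or less with every other member.

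Close pairs matter for reading the counts, because short reads from an identical stretch cannot be assigned by sequence alone. Identical runs reached 127 bases between Ms4a4b and Ms4a4c, 81 between Ms4a6b and Ms4a6d, 57 between Ms4a4c and Ms4a4d and 55 between Ms4a6b and Ms4a6c. The longest run of the most identical pair in each set, from the reference transcripts, is shown for that reason, in lower case throughout. The first covers coding bases 321 to 447 of both Ms4a4b and Ms4a4c, and the second coding bases 389 to 443 of both Ms4a6b and Ms4a6c.
Ms4a4b and Ms4a4c: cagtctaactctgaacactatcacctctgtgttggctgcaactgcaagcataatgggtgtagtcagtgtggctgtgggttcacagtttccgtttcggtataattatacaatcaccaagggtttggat
Ms4a6b and Ms4a6c: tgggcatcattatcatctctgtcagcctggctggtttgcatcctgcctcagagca
Over whole transcripts such stretches were limited. Of the distinct 50-base words of each gene, the share also found in another gene was 8.19% for Ms4a4c, 4.19% for Ms4a4b and 0.546% for Ms4a4d. It was 11.3% for Ms4a6c, 5.89% for Ms4a6b and 2.69% for Ms4a6d. Ms4a7 shared none. RSEM divides reads that match several genes by a model, so the values of single Ms4a4 and Ms4a6 genes carry an uncertainty that replicate libraries do not show. Sums over each set are therefore given as well.

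The regions before the start sites are shown for the pairs that are close copies there too. RefSeq promoter windows (build GRCm38.p6, 250 bases before to 50 after a start site) matched 6 of the 7 members, with 7 windows because Ms4a7 has 2 start sites; Ms4a6d had none. In the 250 upstream bases Ms4a4b and Ms4a4c were identical at 181 of 225 aligned bases (80.4%), and Ms4a6b and Ms4a6c at 151 of 171 (88.3%). The stretches below, from those alignments, are on the plus strand, 5′ to 3′, and capitals mark GAGGAA, a core bound by ETS factors such as PU.1, in the Ms4a4 pair. In the Ms4a6 pair capitals mark a match to GAAANNGAA, a short form of the interferon-stimulated response element. They lie at chr19:11407531-11407660 (Ms4a4c, bases -130 to -1 before its start site), chr19:11443425-11443553 (Ms4a4b, -133 to -5), chr19:11469193-11469366 (Ms4a6c, -175 to -2) and chr19:11518311-11518488 (Ms4a6b, -248 to -71).
Ms4a4c: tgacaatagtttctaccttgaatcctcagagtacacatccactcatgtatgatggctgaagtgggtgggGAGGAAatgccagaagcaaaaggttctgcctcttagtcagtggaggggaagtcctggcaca
Ms4a4b: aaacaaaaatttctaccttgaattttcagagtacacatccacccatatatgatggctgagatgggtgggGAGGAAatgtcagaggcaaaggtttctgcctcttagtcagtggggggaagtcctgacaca
Ms4a6c: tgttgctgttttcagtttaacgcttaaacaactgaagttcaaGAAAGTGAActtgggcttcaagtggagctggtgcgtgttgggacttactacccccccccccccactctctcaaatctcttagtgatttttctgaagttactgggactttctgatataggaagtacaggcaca
Ms4a6b: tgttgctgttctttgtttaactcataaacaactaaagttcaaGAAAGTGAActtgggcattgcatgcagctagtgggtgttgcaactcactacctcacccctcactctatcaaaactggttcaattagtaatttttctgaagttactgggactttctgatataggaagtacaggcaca
GAGGAA stood at the same place in both Ms4a4 promoters, 61 and 64 bases before the start of Ms4a4c and Ms4a4b. It also began at +44, after the start site, in 1 Ms4a7 window, and 28.3% of all 32851 windows held it on either strand. GAAANNGAA, whose letters were chosen after measured values and these sequences had been seen, began at -133 in Ms4a6c and -206 in Ms4a6b. It was present in both Ms4a7 windows and occurred in 8.56% of all windows. The longer core GAAANNGAAA, found in 3.44% of windows, and the STAT core TTCNNNGAA, found in 8.3%, were in no member's window. The AP-1 core TGANTCA (7.81% of windows) was in 1 Ms4a7 window and, after the start site, in the Ms4a4b window. These are matches of letters on either strand; they do not show that a factor binds there.

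Libraries held between 6023510 and 15368616 estimated counts, with the lowest in CD103+ DC1 replicate 3, and 12323 to 14051 genes had a count. Levels below are CPM, counts scaled to a common library size with TMM factors. The population labels were checked against markers. Xcr1 and Clec9a, receptors that define DC1, averaged 273 and 354 CPM in CD103+ DC1. In ISG+ DC of either host neither exceeded 22.0 CPM in any library. Itgam, the CD11b integrin chain of cDC2 and macrophages, was at 1150 to 1435 CPM in the 4 ISG+ DC libraries, against 73.7 to 84.8 CPM in CD103+ DC1. As to the name ISG+, type I interferon-stimulated genes summed to 11200 and 10100 CPM in Rag2-/- ISG+ DC and 5620 and 5470 CPM in WT ISG+ DC. In CD103+ DC1 they summed to 6370 and 6590 CPM. The lower sum in WT ISG+ DC than in CD103+ DC1 turned on Ifi205. That gene was at 1164 and 1855 CPM in CD103+ DC1, against 252 and 174 CPM in WT ISG+ DC. Of the 29 genes tested, 16 had a log2 fold change above 0 in WT ISG+ DC against CD103+ DC1. By the test used below 6 were higher in WT ISG+ DC and 2 lower, Ifi205 and Mx1. Mx1 averaged 183 CPM in WT ISG+ DC, against 481 CPM in CD103+ DC1. Macrophage and monocyte markers were also present in ISG+ DC, and their summed level differed between the hosts, as given beside the results. Rag2 itself had 40 and 2 estimated counts in Rag2-/- ISG+ DC, none in either WT library, and 39 and 11 in CD103+ DC1. The labels do not say which part of Rag2 is deleted, so these few counts do not check the host labels, and directions between hosts depend on those labels.

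The summed level of the family was higher in ISG+ DC of either host than in CD103+ DC1. The 7 genes summed to 938 and 924 CPM in Rag2-/- ISG+ DC, 751 and 698 CPM in WT ISG+ DC, and 115 and 200 CPM in CD103+ DC1. No ISG+ DC library came near either CD103+ DC1 library. In bulk samples, more cells expressing a gene and more RNA per cell cannot be told apart.

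**Figure D2:**
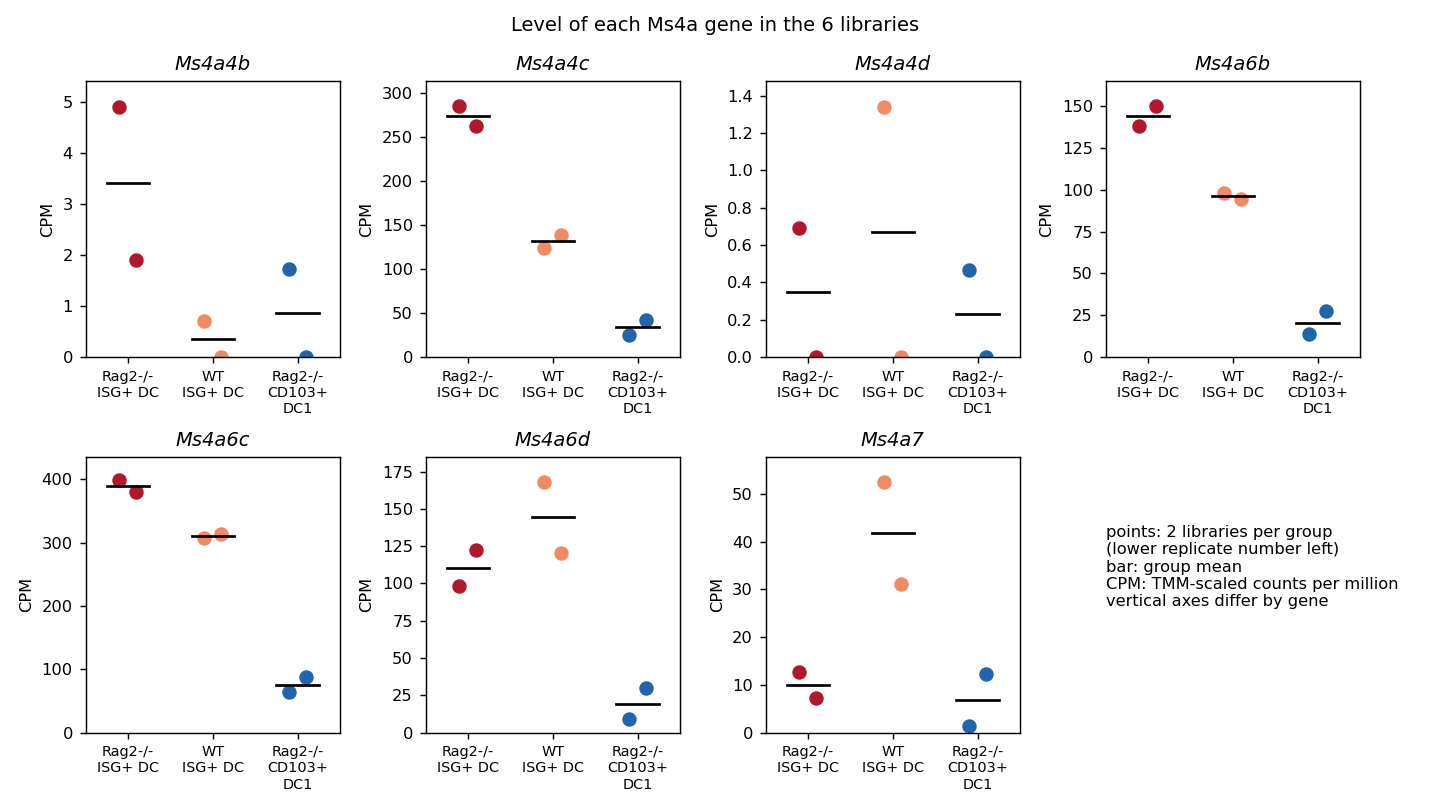
Level of each of the 7 Ms4a genes in CPM, with 1 point per library, 2 libraries per group, and the group mean as a bar; vertical axes differ by gene. Ms4a4c, Ms4a6b, Ms4a6c and Ms4a6d lie higher in every ISG+ DC library than in either CD103+ DC1 library, and Ms4a7 stands out in WT ISG+ DC, at 52.5 and 31.1 CPM.

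The first comparison set the populations side by side within Rag2-/- hosts. Of the 6 members tested, 4 were higher in ISG+ DC (Ms4a4c, Ms4a6b, Ms4a6c and Ms4a6d) and none was lower. Genes were called at a Benjamini-Hochberg adjusted p under 0.05 in edgeR's quasi-likelihood test. Of all 13223 genes tested, 2.83% were higher, 0.862% lower and 3.69% either. Groups without overlap, with ISG+ DC higher, were found for 23.9% of all genes. Ms4a4b and Ms4a7 did not pass.

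Ms4a4c, a mouse gene often seen in monocyte and interferon-response signatures, had the largest log2 fold change among the 4. Ms4a6d was larger without CD103+ DC1 replicate 3 (3.66, against 3.48 for Ms4a4c) and with ISG+ DC of both hosts pooled (2.73 against 2.59). With all 6 libraries in their groups, the values of Ms4a4c were as follows. Ms4a4c stood at 285 and 262 CPM in Rag2-/- ISG+ DC, against 24.9 and 42.5 CPM in CD103+ DC1. The lower ISG+ DC library was still far above the higher CD103+ DC1 library. The log2 fold change was 3.03 ± 0.34 (SE), an 8.16-fold higher level (adjusted p = 0.00102, edgeR).

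Ms4a6c, a gene known from mouse monocytes, stood at 398 and 380 CPM in Rag2-/- ISG+ DC, against 64.1 and 87.5 CPM in CD103+ DC1. Replicates lay close together in ISG+ DC, and the groups did not overlap. The level was 5.14-fold higher, with a log2 fold change of 2.36 ± 0.27 (SE, adjusted p = 0.00114, edgeR).

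Ms4a6b, its closest copy, stood at 138 and 150 CPM in Rag2-/- ISG+ DC, against 14.0 and 27.2 CPM in CD103+ DC1. Again the groups were well apart, although the CD103+ DC1 libraries differed from each other by more in proportion than the ISG+ DC libraries did. The level was 7.05-fold higher, with a log2 fold change of 2.82 ± 0.40 (SE, adjusted p = 0.00284, edgeR). Without Rag2-/- ISG+ DC replicate 3 it no longer passed (log2 fold change 2.75, adjusted p = 0.0565).

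Ms4a6d, whose product forms a complex with VSIG4 that restrains the NLRP3 inflammasome in mouse macrophages, stood at 98.1 and 123 CPM in Rag2-/- ISG+ DC, against 8.84 and 30.0 CPM in CD103+ DC1. The CD103+ DC1 libraries were spread wide, with replicate 3 the higher. The level was 5.77-fold higher, with a log2 fold change of 2.53 ± 0.52 (SE, adjusted p = 0.0238, edgeR). This call was the least stable of the 4. It was lost without Rag2-/- ISG+ DC replicate 2 (log2 fold change 2.67, adjusted p = 0.115), without its replicate 3 (2.35, adjusted p = 0.228) and without WT ISG+ DC replicate 1 (2.52, adjusted p = 0.0504), with fold changes close to that of all 6 libraries. The log2 fold change was 1.87 without CD103+ DC1 replicate 2 and 3.66 without replicate 3, and the call held in both.

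The other 3 members gave no call. Ms4a7, a gene of tissue macrophages in mouse and human, stood at 12.8 and 7.22 CPM in Rag2-/- ISG+ DC, against 1.33 and 12.3 CPM in CD103+ DC1. The groups overlapped, since CD103+ DC1 replicate 3 was nearly level with the higher ISG+ DC library. The log2 fold change was 0.58 ± 0.91 (SE, adjusted p = 0.855, edgeR) with a 95% interval of -1.43 to 2.59. It was 2.92 without CD103+ DC1 replicate 3 and -0.31 without replicate 2.

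Ms4a4b, known from mouse T cells, where its product associates with the receptor GITR, was near the limit of detection. It had 78.4 and 26.3 estimated counts in Rag2-/- ISG+ DC (4.91 and 1.90 CPM), against 26.2 and 0 in CD103+ DC1 (1.73 and 0 CPM). The log2 fold change of 1.93 ± 2.72 (SE, adjusted p = 0.835, edgeR) covers changes in either direction. It was 0.99 without CD103+ DC1 replicate 3 and 8.27 without replicate 2, which leaves that group at 0. A count of 0 in a whole group of 2 libraries would allow up to 0.101 CPM in Rag2-/- ISG+ DC, 0.141 CPM in WT ISG+ DC and 0.144 CPM in CD103+ DC1, from 3 counts and for counting error only. Ms4a4d had 11 and 0 counts in Rag2-/- ISG+ DC, against 15 and 0 in WT ISG+ DC, and 7 and 0 in CD103+ DC1. It was thus detected in 1 library of every group, at no more than 1.34 CPM, and differences between groups were not detectable at this depth.

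Summed sets do not depend on how reads were divided within a set. The Ms4a4 genes together stood at 291 and 264 CPM in Rag2-/- ISG+ DC, 126 and 139 CPM in WT ISG+ DC, and 27.1 and 42.5 CPM in CD103+ DC1. The Ms4a6 genes together stood at 634 and 652 CPM in Rag2-/- ISG+ DC, 573 and 528 CPM in WT ISG+ DC, and 86.9 and 145 CPM in CD103+ DC1. For Rag2-/- ISG+ DC against CD103+ DC1, the log2 ratios of the group means were 2.996 for Ms4a4 and 2.47 for Ms4a6, close to the values of Ms4a4c and Ms4a6c, which supplied most counts of their sets.

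Markers of other cells moved with this comparison. Of 18 macrophage and monocyte markers, 12 were higher in Rag2-/- ISG+ DC than in CD103+ DC1 and none lower, with a median log2 fold change of 2.33, against -0.02 over all genes tested. Their summed level was 3980 and 5930 CPM in Rag2-/- ISG+ DC, against 1140 and 1290 CPM in CD103+ DC1. None of the 18 was at 0 in every library, and Csf1r and Fcgr1, the M-CSF receptor and the CD64 Fc receptor, were 14.3-fold and 10.8-fold higher in ISG+ DC. Of 15 genes of CD11b+ cDC2 identity, 10 were higher and none lower (median 3.99), beside 2.83% of all genes higher and 0.862% lower. Cd209a (29 and 0 counts in CD103+ DC1) and Clec4a2 (36 and 0) are among those called higher. They passed the filter only through their ISG+ DC levels, so their side is not a separate result. Of 29 type I interferon-stimulated genes 12 were higher and 1 lower (median 0.99). The part that any of these lists had in the Ms4a differences was not tested. T cell markers were low but not absent. The 12 genes summed to 43.3 and 10.6 CPM in Rag2-/- ISG+ DC, 73.3 and 47.0 CPM in WT ISG+ DC, and 22.9 and 62.3 CPM in CD103+ DC1. Cd3e did not exceed 0.499 CPM in any library, while Cd3d reached 16.3 CPM and Cd8a 19.01 CPM in CD103+ DC1 replicate 3 and Bcl11b 30.7 CPM in WT ISG+ DC replicate 1. The 6 mast cell and basophil markers summed to 70.8 and 45.2 CPM in Rag2-/- ISG+ DC, 40.9 and 53.2 CPM in WT ISG+ DC, and 153 and 106 CPM in CD103+ DC1. Nearly all of that was Kit, and Fcer1a was at 0 in all 6 libraries.

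The same members were then compared between WT ISG+ DC and Rag2-/- CD103+ DC1. Here host and population both differ and cannot be told apart, and the CD103+ DC1 libraries are those of the first comparison. Ms4a4c, Ms4a6b, Ms4a6c and Ms4a6d were higher in WT ISG+ DC, 4 of the 6 tested. Of all genes 5.52% were higher, 3.62% lower and 9.14% either. Ms4a6d had the highest of the 4 fold changes.

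Ms4a6d stood at 168 and 120 CPM in WT ISG+ DC, against 8.84 and 30.0 CPM in CD103+ DC1. Both WT libraries were above both CD103+ DC1 libraries by a wide margin. The log2 fold change was 2.91 ± 0.53 (SE), or 7.54-fold (adjusted p = 0.00665, edgeR), and it was 2.25 without CD103+ DC1 replicate 2 and 4.05 without replicate 3. Ms4a6b, at 98.0 and 94.2 CPM in WT ISG+ DC, was 4.70-fold higher than in CD103+ DC1 (adjusted p = 0.00507, edgeR). Ms4a6c, at 307 and 314 CPM in WT ISG+ DC, was 4.10-fold higher (adjusted p = 0.000983, edgeR). Ms4a4c, at 124 and 139 CPM in WT ISG+ DC, was 3.91-fold higher (adjusted p = 0.00398, edgeR). These 3 genes had close replicates in WT ISG+ DC, and no group overlapped with CD103+ DC1.

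Ms4a7 stood at 52.5 and 31.1 CPM in WT ISG+ DC, against 1.33 and 12.3 CPM in CD103+ DC1. The groups did not overlap, as for 25.7% of all genes in that direction. Its log2 fold change of 2.64 ± 0.95 (SE) did not pass (adjusted p = 0.128, edgeR). It passed without the count filter (adjusted p = 0.00982), by limma-voom (0.0234) and without CD103+ DC1 replicate 3 (log2 fold change 4.99, adjusted p = 0.00517), within a range of 0.00517 to 0.389 over 11 alternatives. Without CD103+ DC1 replicate 2 the log2 fold change was 1.75 (adjusted p = 0.128). Ms4a4b, with 7.61 and 0 counts in WT ISG+ DC, against 26.2 and 0 in CD103+ DC1, gave no readable difference (log2 fold change -1.28 ± 2.70 SE, adjusted p = 0.851, edgeR).

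Of the 29 type I interferon-stimulated genes, 6 were higher in WT ISG+ DC than in CD103+ DC1 and 2 lower (median log2 fold change 0.05), beside 5.52% of all genes higher and 3.62% lower. Of the 18 macrophage and monocyte markers, 14 were higher in WT ISG+ DC than in CD103+ DC1 and none lower (median 3.62), with summed levels of 11200 and 11300 CPM in WT ISG+ DC, against 1140 and 1290 CPM in CD103+ DC1. Their part in the Ms4a differences was not tested.

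**Figure D3:**
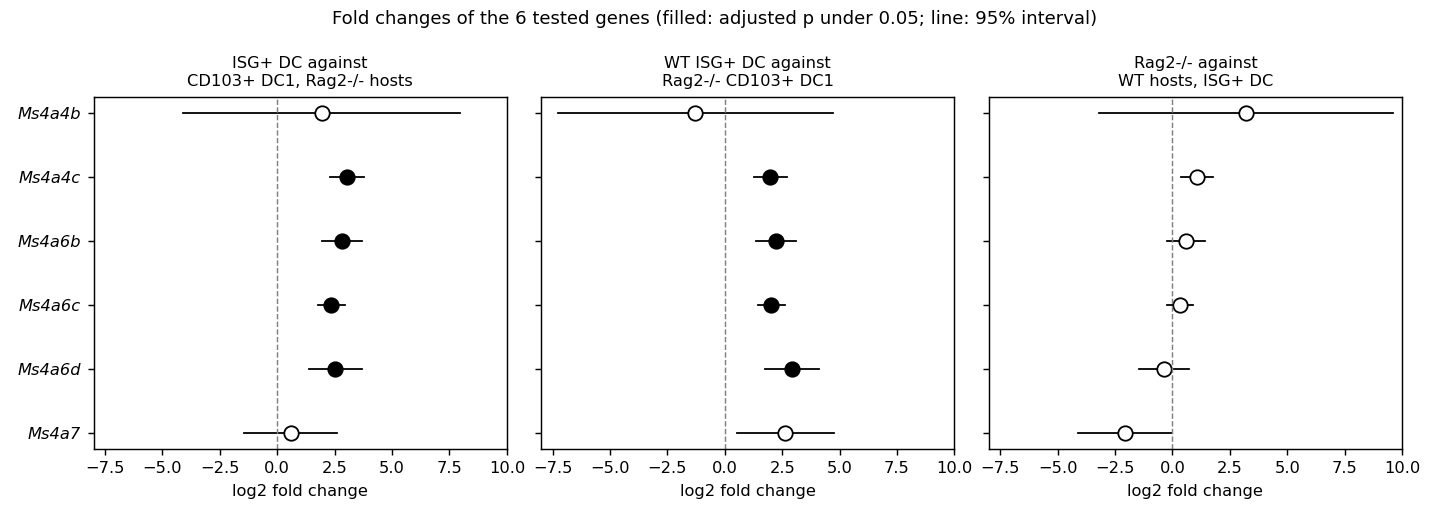
Log2 fold change of the 6 tested Ms4a genes in the 3 comparisons, with the first-named group over the second, points filled where the adjusted p was under 0.05, and lines for the 95% interval. The 4 filled points of each ISG+ DC against CD103+ DC1 panel are the same genes in both panels, which share the CD103+ DC1 libraries. No point is filled between hosts.

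The last comparison asked whether the host changed these genes in ISG+ DC. None of the 6 tested members passed the test between Rag2-/- and WT hosts, where 0.265% of all genes were higher, 0.287% lower and 0.552% either. At an unadjusted p under 0.05 there were 2, Ms4a4c and Ms4a7, beside 9.88% of all genes. DESeq2 called 0 members and 4.47% of the genes it gave an adjusted p, and limma-voom called 1 member and 2.45% of all genes. The Rag2-/- ISG+ DC libraries are those of the first comparison.

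Ms4a4c stood at 285 and 262 CPM in Rag2-/- ISG+ DC, against 124 and 139 CPM in WT ISG+ DC. Replicates agreed closely in each host, and both Rag2-/- libraries lay above both WT libraries. The level was 2.09-fold higher in Rag2-/- hosts, with a log2 fold change of 1.06 ± 0.32 (SE, 95% interval 0.36 to 1.76, unadjusted p = 0.00687, adjusted p = 0.213, edgeR). It was higher in all 11 alternatives, with adjusted p from 0.00904 to 0.718. It passed in 5 of them, which were no count filter (0.047), limma-voom (0.0339), the 2 groups fitted alone (0.00904) and leaving out CD103+ DC1 replicate 2 (0.0198) or replicate 3 (0.0151). The Ms4a4 sum differed by a log2 ratio of 1.07 between the hosts.

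The difference in Ms4a7 had the opposite sign. It stood at 12.8 and 7.22 CPM in Rag2-/- ISG+ DC, against 52.5 and 31.1 CPM in WT ISG+ DC. The groups did not overlap, though the WT replicates themselves were far apart. The level in Rag2-/- hosts was 4.18-fold lower, with a log2 fold change of -2.06 ± 0.92 (SE, 95% interval -4.10 to -0.02, unadjusted p = 0.0482, adjusted p = 0.494, edgeR). Over the 11 alternatives the adjusted p ran from 0.0437 to 1, and only the 2 groups fitted alone passed. Ms4a7 counts were whole numbers in all 6 libraries, and it shared no 50-base word with another gene, so its value does not rest on a division of reads.

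None of the Ms4a6 genes passed the test between hosts. Ms4a6c stood at 398 and 380 CPM in Rag2-/- ISG+ DC, against 307 and 314 CPM in WT ISG+ DC, a log2 fold change of 0.33 ± 0.26 (SE, adjusted p = 0.774, edgeR) with an interval of -0.24 to 0.90. Ms4a6b stood at 138 and 150 CPM in Rag2-/- ISG+ DC, against 98.0 and 94.2 CPM in WT ISG+ DC, a log2 fold change of 0.59 ± 0.37 (SE, adjusted p = 0.69, edgeR) with an interval of -0.23 to 1.40. For both genes the libraries of the hosts did not overlap, but neither difference passed the test, and the intervals include 0. Ms4a6d stood at 98.1 and 123 CPM in Rag2-/- ISG+ DC, against 168 and 120 CPM in WT ISG+ DC. These values overlapped, and the log2 fold change was -0.39 ± 0.49 (SE, adjusted p = 0.917, edgeR) with an interval of -1.47 to 0.70. The Ms4a6 sum differed by a log2 ratio of 0.23. Ms4a4b had 78.4 and 26.3 counts in Rag2-/- ISG+ DC, against 7.61 and 0 in WT ISG+ DC, which was too few for a call (log2 fold change 3.21 ± 2.88 SE, adjusted p = 0.832, edgeR, and 8.37 without WT ISG+ DC replicate 1, which leaves that group at 0). Non-overlapping groups were common between hosts, at 23.1% of all genes with Rag2-/- higher and 21.4% with Rag2-/- lower.

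Other gene sets moved between the hosts beside these genes. The 29 type I interferon-stimulated genes tested summed to 11200 and 10100 CPM in Rag2-/- ISG+ DC, against 5620 and 5470 CPM in WT ISG+ DC. Of them 4 were higher in Rag2-/- hosts and none lower (median log2 fold change 0.95, against 0.03 over all genes), beside 0.265% of all genes higher and 0.287% lower. The macrophage and monocyte markers ran opposite in sum, though not in every gene, at 3980 and 5930 CPM in Rag2-/- ISG+ DC, against 11200 and 11300 CPM in WT ISG+ DC (median -1.27). A log2 fold change above 0 was found for 6 of the 18, among them Ly6c2 (1.49) and Plac8 (0.92), and none of these passed the test. Of the 18 only Apoe, a lipid carrier made by macrophages, was lower by the test, with a log2 fold change of -2.93 ± 0.43 (SE, adjusted p = 0.0194, edgeR).

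Smaller shifts were seen in lists of cells other than DC. NK cell markers summed to 72.6 and 60.1 CPM in Rag2-/- ISG+ DC, against 13.8 and 10.8 CPM in WT ISG+ DC. Nearly all of this was 1 of the 7 genes, Klrd1, while Klrb1c was at 0 in all 6 libraries and Ncr1 at 0 in both Rag2-/- ISG+ DC libraries. No other gene of the list exceeded 1.64 CPM in either Rag2-/- ISG+ DC library. Gzma (17 counts) and Klra8 (26 counts) were seen in replicate 2 of that group alone. Fibroblast markers, which the tumor line may share, summed to 1010 and 608 CPM in Rag2-/- ISG+ DC, against 339 and 37.3 CPM in WT ISG+ DC. No gene of either list passed the test. The part of all these lists in the Ms4a values was not tested.

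**Figure D4:**
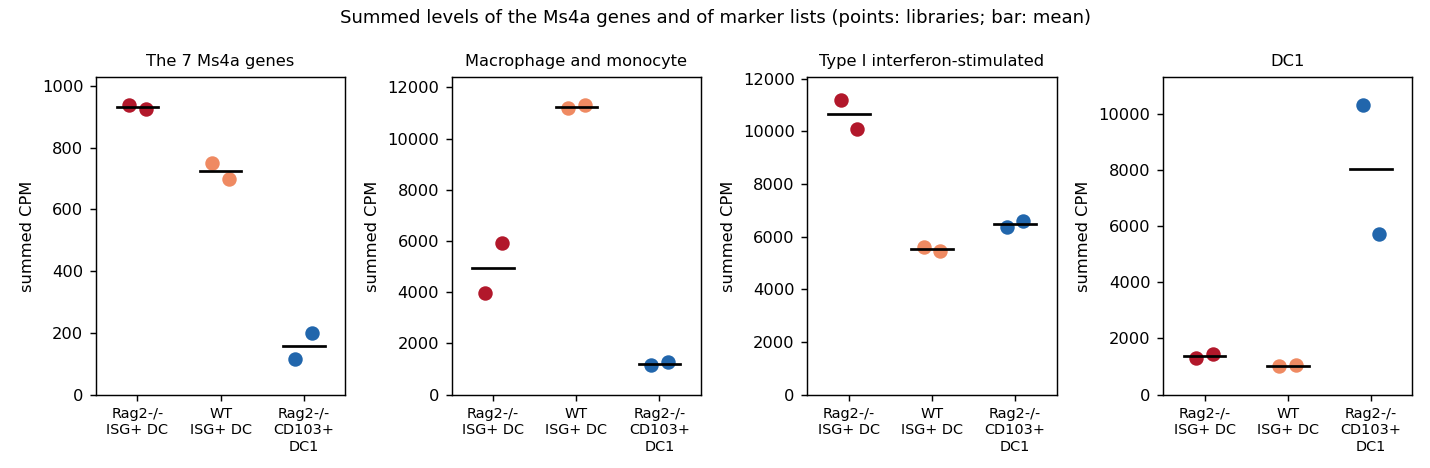
Summed CPM of the 7 Ms4a genes and of 3 marker lists, with 1 point per library and the group mean as a bar. The Ms4a sum is highest in Rag2-/- ISG+ DC, the macrophage and monocyte sum in WT ISG+ DC at 11200 and 11300 CPM, the type I interferon-stimulated sum in Rag2-/- ISG+ DC at 11200 and 10100 CPM, and the DC1 sum in CD103+ DC1.

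The members' order across groups therefore differed from gene to gene. Ms4a4c ran from Rag2-/- ISG+ DC through WT ISG+ DC to CD103+ DC1 (274 ± 16.1, 131 ± 10.8 and 33.7 ± 12.4 CPM, mean ± SD, n = 2 each). Ms4a6c (389 ± 13.2, 310 ± 4.95 and 75.8 ± 16.6 CPM) and Ms4a6b (144 ± 8.71, 96.1 ± 2.63 and 20.6 ± 9.38 CPM) had the same order of means. In all 3 the step to CD103+ DC1 passed the test and the step between hosts did not. Ms4a6d averaged 110 ± 17.2 CPM in Rag2-/- ISG+ DC, against 144 ± 33.9 CPM in WT ISG+ DC, with overlapping libraries, and 19.4 ± 14.9 CPM in CD103+ DC1. Ms4a7 averaged 9.998 ± 3.931 CPM in Rag2-/- ISG+ DC, 41.8 ± 15.1 CPM in WT ISG+ DC and 6.83 ± 7.78 CPM in CD103+ DC1. For Ms4a7 no neighbouring step passed.

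The make-up of the family's counts shows the same values as shares within a library, not corrected for gene length. Ms4a6c took the most counts in every library, at 42.5% and 41.1% in Rag2-/- ISG+ DC, against 40.8% and 44.9% in WT ISG+ DC, and 55.6% and 43.9% in CD103+ DC1. The share of Ms4a4c was 30.4% and 28.4% in Rag2-/- ISG+ DC, against 16.5% and 19.9% in WT ISG+ DC, and 21.6% and 21.3% in CD103+ DC1. The share of Ms4a6d was 10.5% and 13.3% in Rag2-/- ISG+ DC, against 22.4% and 17.2% in WT ISG+ DC, and 7.67% and 15.0% in CD103+ DC1. Ms4a4c and Ms4a6d shares were thus on opposite sides in the hosts, with no overlap for either. A share also depends on the other members, and in CPM Ms4a6d overlapped between hosts (98.1 and 123 against 168 and 120 CPM). In CPM, 23.1% of all genes did not overlap with Rag2-/- higher and 21.4% with Rag2-/- lower. The share of Ms4a7 was 1.36% and 0.781% in Rag2-/- ISG+ DC, against 6.98% and 4.46% in WT ISG+ DC, and 1.15% and 6.18% in CD103+ DC1. The Ms4a7 share in CD103+ DC1 replicate 3 lay between those of the WT ISG+ DC libraries. Its level there was lower, at 12.3 CPM against 52.5 and 31.1 CPM. All 7 together made up 0.097% and 0.0935% of all counts in Rag2-/- ISG+ DC, against 0.0735% and 0.0669% in WT ISG+ DC, and 0.0121% and 0.0193% in CD103+ DC1.

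**Figure D5:**
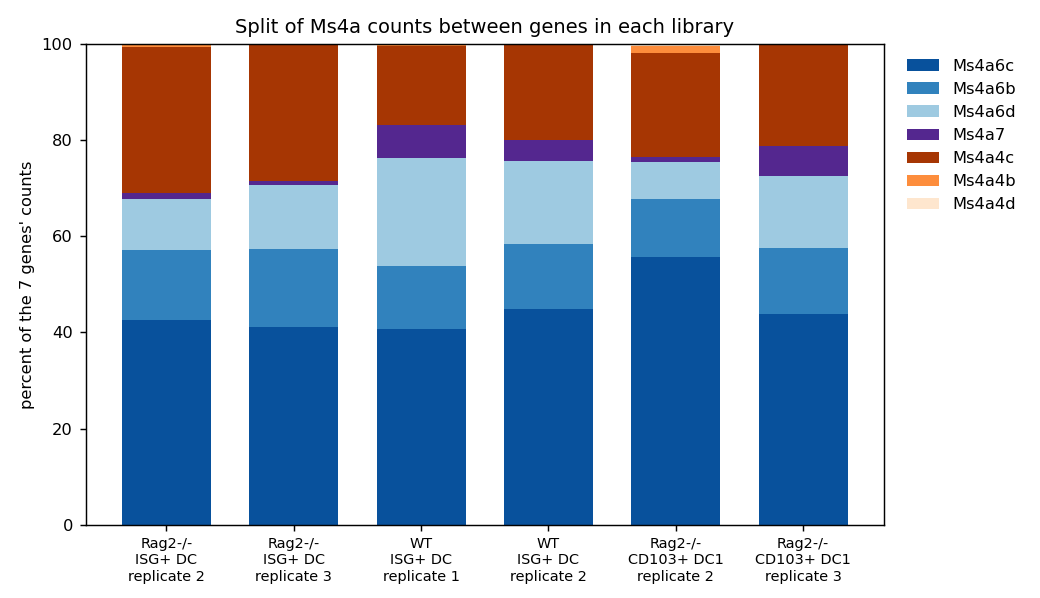
Share of the 7 Ms4a genes' counts held by each gene, in percent, with 1 stacked bar per library. Ms4a6c is the largest part of every bar, Ms4a4c is larger in Rag2-/- ISG+ DC (30.4% and 28.4%) than in WT ISG+ DC (16.5% and 19.9%), and Ms4a7 reaches 6.98% in WT ISG+ DC.

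Most other family genes in the table were not detected. Of 11 such genes (9 other Ms4a symbols, and Tmem176a and Tmem176b, which encode related membrane proteins), 7 were at 0 in all 6 libraries, Ms4a1, Ms4a2, Ms4a3, Ms4a5, Ms4a10, Ms4a13 and Ms4a18. Ms4a15 was seen in WT ISG+ DC replicate 1 alone, at 0.268 CPM. Of the 3 that passed the filter, Ms4a8a had 4 and 0 counts in CD103+ DC1. It passed only through its ISG+ DC levels, so its side is not a separate result. In the Rag2-/- hosts 2 of the 3, Tmem176a and Tmem176b, were higher in ISG+ DC (median log2 fold change 3.11), beside 2.83% of all genes. None passed between hosts (median -0.54), beside 0.552% of all genes. Tmem176a and Tmem176b were also higher in WT ISG+ DC than in CD103+ DC1, beside 5.52% of all genes. The median of the 3 log2 fold changes there was 3.65. Ms4a8a passed the test there too but is not counted, for the reason given.

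Tmem176b, known from DC and macrophages, stood at 118 and 124 CPM in Rag2-/- ISG+ DC, 126 and 198 CPM in WT ISG+ DC, and 18.2 and 11.3 CPM in CD103+ DC1. Rag2-/- ISG+ DC had 8.12-fold the level of CD103+ DC1 (adjusted p = 0.00176, edgeR). Tmem176a, its neighbour and partner, stood at 50.4 and 36.4 CPM in Rag2-/- ISG+ DC, 57.8 and 68.3 CPM in WT ISG+ DC, and 6.58 and 3.25 CPM in CD103+ DC1, and was 8.64-fold higher in Rag2-/- ISG+ DC than in CD103+ DC1 (adjusted p = 0.00805, edgeR). Both genes had their lowest levels in the CD103+ DC1 libraries. Ms4a8a, known from alternatively activated macrophages in the mouse, stood at 6.42 and 6.64 CPM in Rag2-/- ISG+ DC, 16.7 and 17.5 CPM in WT ISG+ DC, and 0.266 and 0 CPM in CD103+ DC1. Its call in WT ISG+ DC against CD103+ DC1 (adjusted p = 0.017, edgeR) is not a separate result, since it passed the filter only through its ISG+ DC levels. It did not pass in Rag2-/- hosts (adjusted p = 0.0714, edgeR) or between hosts (log2 fold change -1.39 ± 1.10 SE, adjusted p = 0.781, edgeR). With so few counts in CD103+ DC1 the size of its fold change is not given.

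Genes for receptors and adaptors that MS4A proteins are reported to work beside were also followed, 9 in all with 7 tested. In Rag2-/- hosts 3 were higher in ISG+ DC than in CD103+ DC1 and none lower, Clec7a, Tyrobp and Fcer1g (median of the 7 log2 fold changes 0.01). Of all genes 2.83% were higher there and 0.862% lower. Clec7a encodes Dectin-1, the beta-glucan receptor that human MS4A4A binds. It stood at 145 and 237 CPM in Rag2-/- ISG+ DC, 652 and 709 CPM in WT ISG+ DC, and 17.4 and 48.7 CPM in CD103+ DC1. It was 5.84-fold higher in Rag2-/- ISG+ DC than in CD103+ DC1 (adjusted p = 0.0104, edgeR), and its log2 fold change between Rag2-/- and WT hosts was -1.83 ± 0.43 (SE, adjusted p = 0.0979, edgeR). Tyrobp, the DAP12 adaptor, stood at 170 and 175 CPM in Rag2-/- ISG+ DC, 210 and 216 CPM in WT ISG+ DC, and 28.3 and 17.6 CPM in CD103+ DC1, a 7.46-fold higher level in Rag2-/- ISG+ DC than in CD103+ DC1 (adjusted p = 0.00104, edgeR).

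Fcer1g, the gamma chain shared by several Fc receptors, stood at 324 and 333 CPM in Rag2-/- ISG+ DC, 411 and 385 CPM in WT ISG+ DC, and 49.7 and 127 CPM in CD103+ DC1. It was 3.74-fold higher in Rag2-/- ISG+ DC than in CD103+ DC1 (adjusted p = 0.0221, edgeR), so the IgE receptor's gamma chain was read where its beta chain Ms4a2 and alpha chain Fcer1a were at 0. Vsig4, whose product pairs with that of Ms4a6d in mouse macrophages, was at 0 in 5 libraries and at 0.133 CPM in CD103+ DC1 replicate 2. Tnfrsf18, the gene of GITR, was at 10.1 and 1.31 CPM in Rag2-/- ISG+ DC, 2.59 and 5.59 CPM in WT ISG+ DC and 12.6 and 6.51 CPM in CD103+ DC1, with no call in any comparison. Trem2, a lipid-sensing receptor of macrophages, was at 4.22 and 10.1 CPM in Rag2-/- ISG+ DC, 25.4 and 29.6 CPM in WT ISG+ DC and 2.19 and 12.2 CPM in CD103+ DC1, again with no call. Between hosts none of the 7 passed (median -0.28), beside 0.552% of all genes. In WT ISG+ DC against CD103+ DC1 the same 3 were higher and Kit, the stem cell factor receptor, was lower (log2 fold change -1.43 ± 0.38 SE, adjusted p = 0.0402, edgeR), with a median of 1.96. Of all genes 5.52% were higher there and 3.62% lower.

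For each tested member, the genes most like it were sought among 8109 genes averaging 10 CPM or more, by Pearson's r of log2 CPM over the 6 libraries. With 3 groups among 6 libraries, a high r mostly repeats the group means, and these are descriptions. Ms4a4c was most like Jarid2 (r = 0.9971), Gcnt1 (0.9941) and Fam107b (0.9919). Gcnt1, a glycosyltransferase gene, had 111 and 113 CPM in Rag2-/- ISG+ DC, 40.8 and 57.6 CPM in WT ISG+ DC and 6.98 and 9.76 CPM in CD103+ DC1. It thus repeats the 3 steps of Ms4a4c, whereas Jarid2 and Fam107b followed the same order over a narrower range. Ms4a6b was most like Sesn1 (0.9989), Clec10a (0.9946) and Tnfsf10 (0.9945), and Ms4a6c most like Cdh1 (0.9973), Ace (0.9964) and Cux1 (0.9954).

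Ms4a6d was most like Fcer1g (0.9962), Mgl2 (0.9935) and Mefv (0.9932). Mgl2, a C-type lectin gene of cDC2 and macrophages, had 242 and 432 CPM in Rag2-/- ISG+ DC, 539 and 423 CPM in WT ISG+ DC and 2.26 and 14.6 CPM in CD103+ DC1. Like Ms4a6d it overlapped between hosts and was low in CD103+ DC1. Ms4a7 was most like Asah1 (0.9791), Atg4c (0.9789) and Csf2rb2 (0.9696), which were highest in WT ISG+ DC. Ms4a4b, at its few counts, was most like Ier5 (0.9974), Atp2a3 (0.9911) and Arhgap1 (0.9906).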

How the data were processed

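RNA from sorted DC was sequenced on a NextSeq instrument after a stranded total RNA kit, per the labels' protocols, while the labels' molecule field names polyA RNA. The authors deposited each estimated count per gene symbol, made with RSEM and not normalized; 16.1% of the estimated counts are not whole. Bowtie 1.2.3, RSEM 1.3.1 and build mm9 are named in the submitters' processing notes. The sources used here give no annotation, strand setting or read length, so overlapping and antisense genes cannot be separated. Rounded counts were tested in R 4.3.3 with edgeR 4.0.16 (filterByExpr, TMM, glmQLFit, glmQLFTest, two-sided, Benjamini-Hochberg over 13223 genes, threshold 0.05). One fit over all 6 libraries served the 3 comparisons (residual degrees of freedom 3, prior 7.34, common biological coefficient of variation 0.703). Standard errors came from the F statistic. The procedure was tested on simulated counts. No molecular identifiers are recorded, so limits for a count of 0 cover counting error only.

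Alternatives were RLE scaling, no count filter, DESeq2 1.42.0, limma-voom (limma 3.58.1), the 2 groups fitted alone, each library left out and, for populations, a replicate block and pooled ISG+ DC. Named by rule were all Ms4a genes, the partner list, the 3 most similar genes per member and the first 2 genes of each marker list where shown. Apoe, Klrd1, Cd8a, Bcl11b, Ifi205, Mx1, Ly6c2, Plac8, Cd209a, Clec4a2, Gzma and Klra8 were named after their values were seen. Members and lists were chosen with earlier results of these data known. Coding sequences came from GENCODE transcripts and promoters from RefSeq, both on GRCm38. Because the counts use mm9, only reference sequences carry coordinates.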

Additional observations from a re-analysis of the deposited data

How the results depend on the processing

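For Rag2-/- ISG+ DC against CD103+ DC1, 488 genes were called, against 1087 with no count filter, 1078 by DESeq2 and 121 to 1736 with 1 library left out. In that comparison 2 to 4 members were called with 1 library left out, 12 of 13 alternatives gave Ms4a7 a higher level, and its log2 fold change ran from -0.31, reversed, without CD103+ DC1 replicate 2 to 2.92 without replicate 3. Ms4a4c and Ms4a6c were called in all 13 alternatives, with adjusted p of at most 0.0225 and 0.0246. The replicate block, on numbers 2 and 3, called 711 genes and 4 members. The numbers do not pair the samples by the labels, and the replicate differences of the populations correlated at 0.0162 over 13223 genes. Between hosts no block was fitted, as the groups share 1 number. For Rag2-/- against WT ISG+ DC, 73 genes were called, against 555 with no count filter, 545 by DESeq2, 324 by limma-voom, 536 with the 2 groups alone and 0 to 509 with 1 library left out. Members called there were 1 with no filter, 1 by limma-voom, 2 with the 2 groups alone and 0 to 1 with 1 library left out. For WT ISG+ DC against CD103+ DC1, 1209 genes were called, against 1890 with no count filter, 2082 by DESeq2, 780 with the 2 groups alone and 514 to 2377 with 1 library left out, where 4 to 5 members were called. The log2 fold change of Ms4a4b there ran from -6.45 without WT ISG+ DC replicate 1 to 5.07, reversed, without CD103+ DC1 replicate 2; each leaves a group at 0, so neither value is a measured size. Scaling by RLE moved the median log2 fold change of all genes by under 0.1 and turned no member's direction or call. Depth limits Ms4a4b and Ms4a4d, and with 2 libraries a group the leave-one-out fits assume that a lone library varies like the other groups. The causes of these differences were not tested.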
